A study of Mus musculus with 16 samples.

Results

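Cytokine, chemokine and tumour necrosis factor (TNF) superfamily genes were examined in LSK-enriched mouse bone marrow, a preparation enriched for haematopoietic stem cells and multipotent progenitors. The genes were taken from the deposited table by name: symbols that start with Il and a digit, Ccl, Ccr and a digit, Cxcl, Cxcr, Tnfsf or Tnfrsf, without 9 such genes (Il6, Il1a, Il1r2, Il5ra, Il7r, Ccl3, Ccl5, Ccr9 and Cxcl10) that the choice leaves out. This gave 47 of the table's 6288 genes, of which 46 passed the filter on low values (4 or more libraries with a normalised count of 10 or more) and were tested. The GENCODE annotation of GRCm38 holds 157 protein-coding genes with such names, so the values below describe the genes the table lists and not the whole families. The rule uses no measured value. The 47 genes were 7 interleukins (1 of them an antagonist), 17 interleukin receptor chains or binding proteins, 7 chemokine ligands, 5 chemokine receptors, 4 TNF superfamily ligands and 7 TNF receptor superfamily members. Among the chemokine ligands, Cxcl11 is annotated as a polymorphic pseudogene.

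The study compared marrow of wild-type C57Bl/6J (WT) mice with that of Tet2-deficient (Tet2-/-) mice, both labelled as strain C57Bl/6J, at 3 to 4 months of age and in both sexes. Marrow of every group was collected at 3% oxygen (physioxia) in a closed chamber. Kit-positive, Sca1-positive cells without lineage markers (LSK) were enriched there with selection kits, and the samples are labelled CD45-positive. One share of the enriched cells stayed at 3% oxygen (the physioxia libraries), and the other spent 6 hours in room air at about 21% oxygen before RNA extraction (the air libraries). Bulk RNA sequencing gave 16 libraries, 4 in each combination of genotype and oxygen, described as matched biological replicates. The enzyme Tet2 uses oxygen to convert the methyl mark on DNA. How many mice each library holds is not given in the sources used here, so the p-values measure the spread between these libraries.

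Cytokines are secreted or membrane-bound proteins with which blood and immune cells signal to each other. Most interleukins act through paired receptor chains that pass the signal to JAK kinases and STAT transcription factors, while the interleukin 1 and interleukin 18 receptors and the TNF receptors signal through adaptor proteins to NF-kB. Chemokines direct cell migration through G protein-coupled receptors, and in bone marrow the receptor Cxcr4 is known for holding stem and progenitor cells in their niche. Inflammatory cytokines are known to alter how much and which kind of blood cell these progenitors make, and Tet2 is known as a regulator of cytokine genes in macrophages.

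Values are the authors' normalised counts, that is gene counts scaled by a size factor for each library. Libraries held 7.77 to 15.7 M reads over the table's genes. Tet2 itself stood in air at 650 to 993 (WT) and 506 to 626 (Tet2-deficient) and in physioxia at 592 to 812 and 447 to 530, so it was lower within each oxygen condition but detected in every Tet2-deficient library; a count over the whole gene checks the genotype labels only in part. Kit, which marks the enriched cells, stood at 2029 to 4588 in the WT and 5193 to 7542 in the Tet2-deficient libraries, and Ly6a, the gene of Sca1, was not analysed here. Markers of mature and lineage-committed cells were present in every group. Summed over 8 of 9 listed basophil, mast cell and eosinophil markers, the level in air was 501329 to 547052 in WT against 103908 to 193679 in Tet2-deficient cells, and in physioxia 403373 to 683472 against 130741 to 203569. Over 7 of 10 monocyte and macrophage markers it was 28320 to 53612 against 18460 to 23975 in air and 26482 to 55848 against 17677 to 21394 in physioxia. Over 7 of 9 neutrophil markers it was 1785 to 10294 against 531 to 1430 in air and 4467 to 13051 against 938 to 1880 in physioxia. All 9 erythroid markers were measured, and their sum was higher in the Tet2-deficient libraries, at 110238 to 275892 against 29870 to 47024 in air and 104584 to 257790 against 35736 to 66321 in physioxia. Counted gene by gene, the markers called lower in air and in physioxia were 9 and 9 of 10 T and NK markers, 7 and 6 of 7 monocyte and macrophage markers, 6 and 6 of 7 neutrophil markers, 7 and 8 of 8 basophil, mast cell and eosinophil markers, and 2 and 4 of 6 dendritic cell markers, 1 of which was higher in physioxia. Those called higher were 9 and 7 of 9 erythroid and 6 and 6 of 6 LSK and stem cell markers. Of all genes tested, 37.4% were called lower and 42.1% higher in air, and 33.6% and 35.9% in physioxia. Vpreb1, the only B cell marker in the table, was lower in physioxia only, and Col1a2, the only stromal marker, passed in neither. The part of such cells in the results below was not tested, and in bulk RNA fewer cells of a type cannot be told apart from less RNA per cell.

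Most of these genes were lower in Tet2-deficient than in WT cells: 30 of the 46 tested (65.2%) in air and 35 (76.1%) in physioxia, where 37.4% and 33.6% of all genes tested were lower. Among them were all 5 chemokine receptors and 6 of the 7 chemokine ligands. The interleukin 11 receptor chain Il11ra1 was 5.13 times higher in WT than in Tet2-deficient cells by the ratio of means in air and 5.69 times in physioxia. The exceptions that were higher in Tet2-deficient cells in both conditions were 5 genes: Tnfrsf14, a TNF receptor (8.62 times in air and 9.84 times in physioxia), the chemokine Ccl28 and the receptor chains Il17re, Il1rl1 and Il27ra. The calls of Il1rl1 and Il27ra were lost in both conditions with another scaling (quantile normalisation). Between the oxygen conditions none of the 46 genes passed in either genotype in the unpaired limma fit. With replicate numbers as a block within each genotype, Ccl9 passed in WT (limma adjusted p = 0.0406), although the numbers showed no pairing of the Tet2-deficient libraries. The share of all genes called by that fit was not counted.

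In air, 8 genes were higher, 30 lower and 8 not past the test (limma, Benjamini-Hochberg adjusted p under 0.05 over all 6110 genes tested). Of all genes tested, 79.5% were called in this comparison, 42.1% higher and 37.4% lower. The share of these genes called was thus close to that of the table, but the direction was not: the median log2 difference was −0.71 over the 46 genes and 0.24 over all genes tested. In physioxia, 6 were higher, 35 lower and 5 not past the test, with a median of −0.92 against 0.06 over all genes. The background there was 69.4% called, 35.9% higher and 33.6% lower. The 2 comparisons share no library, but the enriched cells were divided between the oxygen conditions and 1 fit gave the spread of both. Agreement between them is thus not an independent repeat. Across them 30 genes were lower in both, 5 were higher in both, 3 were higher in air only (Il17rc, Il18 and Tnfsf10), 1 was higher in physioxia only (Tnfrsf22), 5 were lower in physioxia only (Il18rap, Il18r1, Il1f9, Tnfrsf25 and Tnfsf4), and Tnfsf9 and Il4 passed in neither. A call in 1 condition and not in the other is no difference between them: the interaction of genotype and oxygen passed the test in none of the 46 genes. The libraries of the genotypes did not overlap in 37 of the 46 genes in air, 30 of these lower, where 70.6% of all genes tested did not overlap and 35.5% did so as lower. In physioxia 29 did not overlap, 26 of them lower, against 57.6% and 28% of all genes. The same shares of all genes are the background for the counts by role below. How the table's genes were chosen is not stated, and with every annotated gene outside it counted as unchanged 19 genes were called in air (3 higher, 16 lower) and 25 in physioxia (3 higher, 22 lower). The share of all genes called under that adjustment was not counted.

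**Figure D1:**
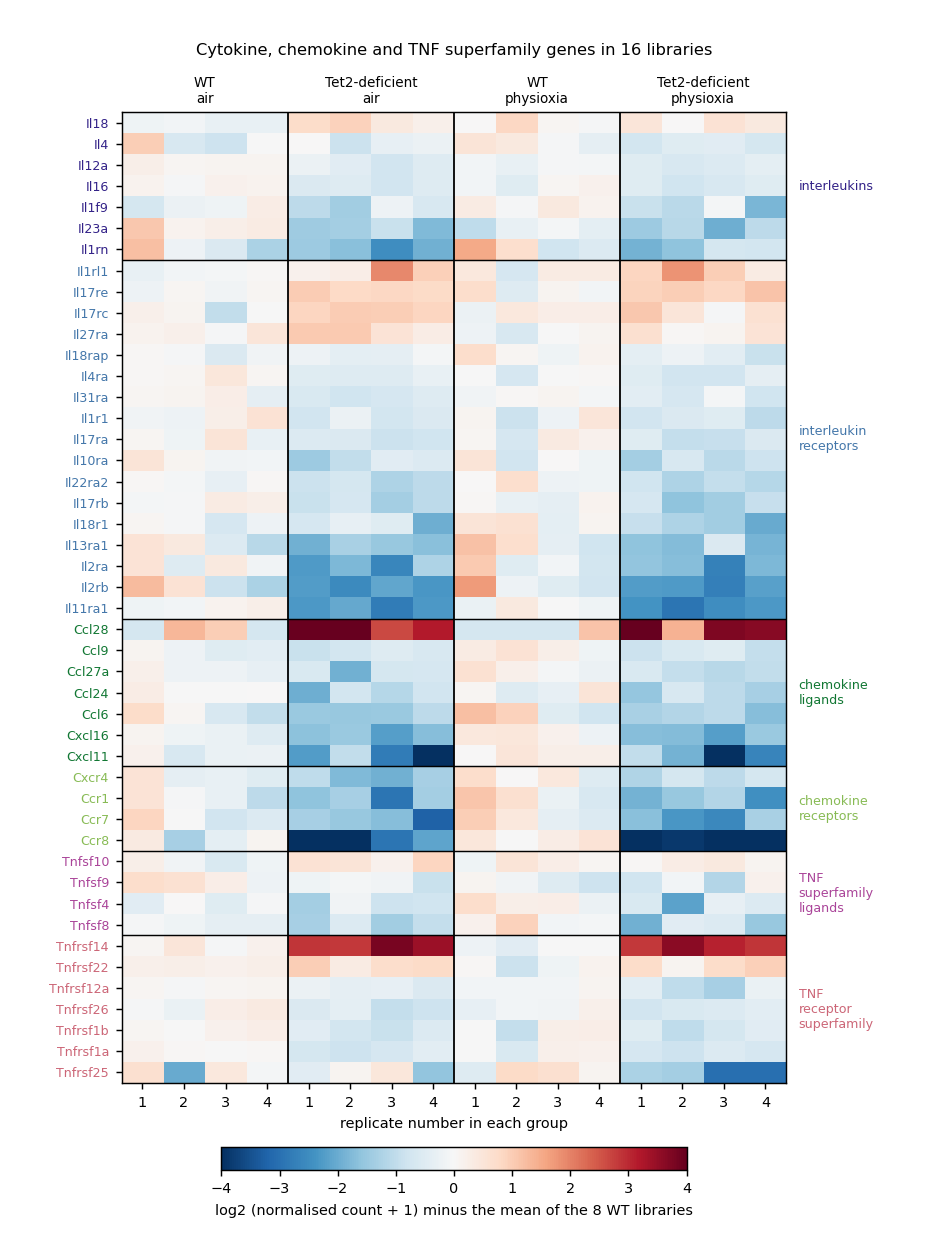
Log2 of the normalised count plus 1 for 46 of the 47 genes (rows, grouped by role) in each of the 16 libraries (columns, 4 replicates per group), minus the mean of the 8 WT libraries, with colours ending at 4 log2 units in each direction. Blue prevails in the Tet2-deficient columns, with Tnfrsf14 and Ccl28 in red, and Il2rb, Il1rn and Ccl6 are reddest in WT replicate 1.

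**Figure D2:**
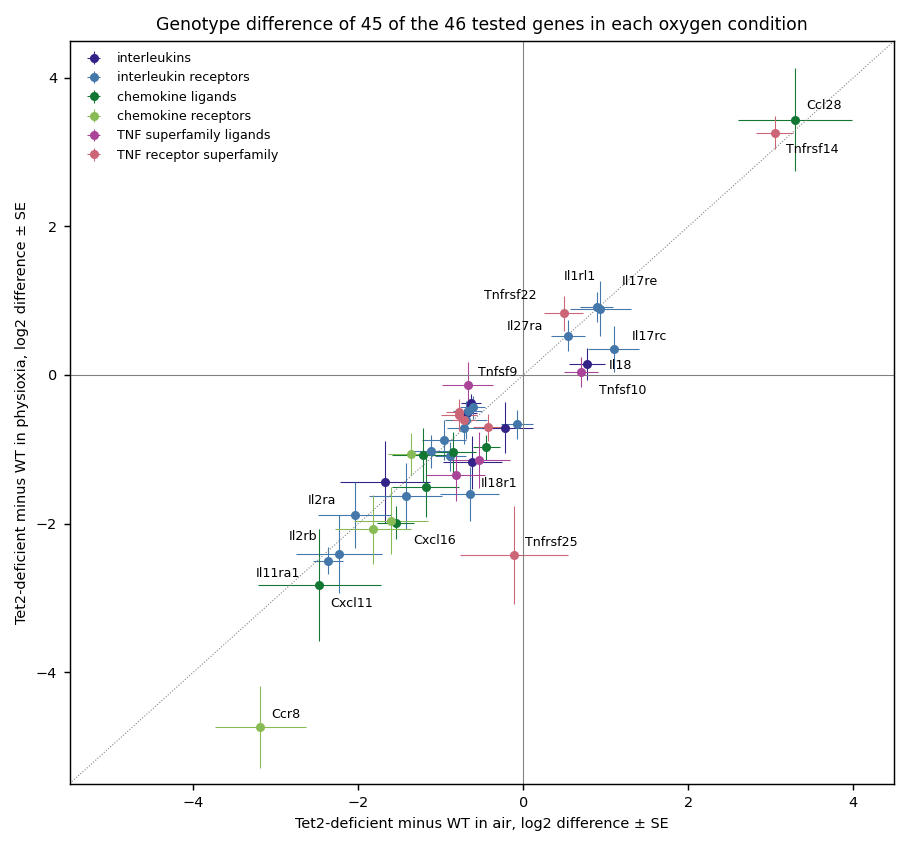
Log2 difference between Tet2-deficient and WT cells, with its SE, in air (x axis) and in physioxia (y axis) for 45 of the 46 tested genes, coloured by role, with the dotted line marking equal differences. Tnfrsf14 and Ccl28 lie above 3 on both axes, Ccr8 lies lowest at −3.19 and −4.74, and most other points are negative on both axes.

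The WT libraries differed among themselves in part of these genes, and this bears on the size of several results. In WT air, replicates 1 and 2 both lay above replicates 3 and 4 in 17 of the 47 genes, and in WT physioxia in 15, where 18.8% and 24.9% of all genes tested did so. Il2rb stood at 681, 425, 156 and 118 in WT air replicates 1 to 4 and at 921, 246, 204 and 167 in WT physioxia. Sums of markers of other cells also differed among the WT libraries, in orders that matched that of Il2rb only in part. The sum of the T and NK markers without the abundant Nkg7 (9 of 12 listed, left out after its values were seen) was 2534, 1564, 1041 and 835 in WT air and 3062, 2981, 1007 and 759 in WT physioxia, against 453 to 658 in the air and 351 to 642 in the physioxia libraries of Tet2-deficient cells. Over all 10 measured T and NK markers, Nkg7 included, it was 31604, 29404, 29096 and 32522 in WT air against 17718 to 25806 in Tet2-deficient air, and 28091, 43599, 26107 and 29285 in WT physioxia against 17943 to 25793. With Nkg7 the WT order was thus lost: replicate 4 was highest in air and replicate 2 in physioxia. Neutrophil markers summed to 10294, 5971, 2834 and 1785 in the 4 WT air libraries and 13051, 8376, 4905 and 4467 in the WT physioxia libraries, and monocyte and macrophage markers to 53612, 47585, 35350 and 28320 and 49766, 55848, 33110 and 26482. The basophil, mast cell and eosinophil sum did not follow this order. It was 501329, 514971, 547052 and 503548 in WT air and 403373, 683472, 449899 and 475770 in WT physioxia. No marker of these lists that the table holds was at 0 in all libraries of a group. With WT replicates 1 and 2 left out of both conditions, a fit chosen after the data were seen, 28 genes were called in air (6 higher, 22 lower) and 31 in physioxia (3 higher, 28 lower). Calls were lost in both conditions for Ccl27a, Il13ra1, Il1rl1, Il1rn, Il27ra and Tnfsf8, in air for Ccl9, Ccr1, Cxcl11 and Tnfrsf12a, and in physioxia for Il18rap, Il31ra, Tnfrsf22 and Tnfsf4. Of these genes, Cxcl11, Il1rl1, Il27ra, Il31ra, Tnfrsf12a, Tnfrsf22 and Tnfsf4 did not have WT replicates 1 and 2 both above 3 and 4 in either condition. The fit held fewer WT libraries, which by itself can end calls, and its share of all genes called was not counted. Without WT replicates 1 and 2 in air alone, 25 were called in air (6 higher, 19 lower), and the share of all genes was not counted for that fit either. The part of the other cells in these differences was not tested.

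**Figure D3:**
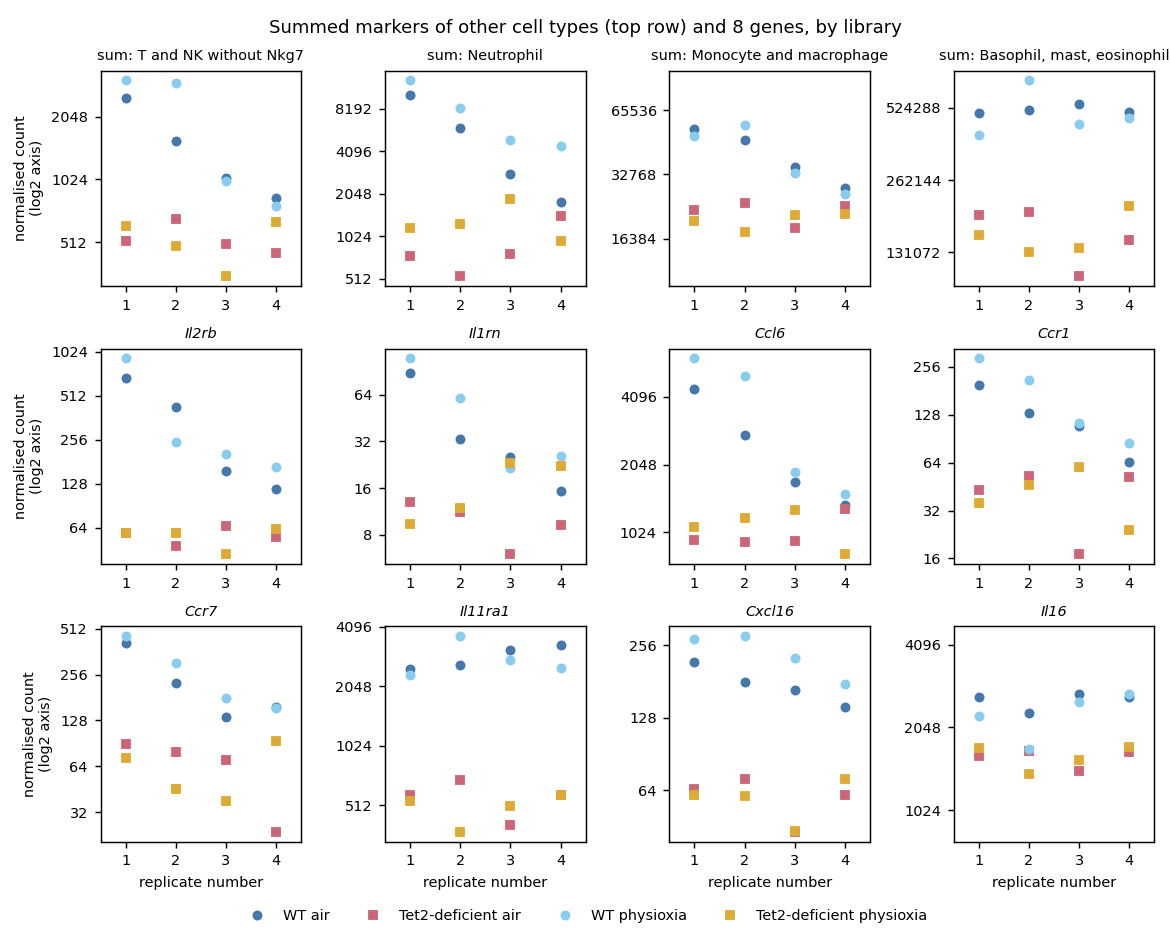
Summed normalised counts of marker lists of other cell types (top row) and normalised counts of 8 genes (other rows) for each replicate number (x axis) on a log2 axis, with circles for WT and squares for Tet2-deficient libraries. The T and NK sum is drawn without Nkg7, which was left out after its values were seen. That sum, the neutrophil and monocyte sums and Il2rb, Il1rn, Ccl6, Ccr1 and Ccr7 are highest in WT replicates 1 and 2 of each oxygen condition. The basophil, mast cell and eosinophil sum, Il11ra1 and Il16 show no such order and Cxcl16 a milder one.

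The 250 bases before each RefSeq start were searched on both strands for the NF-kB pattern and the STAT (GAS) pattern TTCNNNGAA. The AP-1 pattern TGANTCA and the GATA pattern AGATAA were searched in the same way. RefSeq windows of GRCm38.p6 were matched for 32 of the 47 genes, with 46 windows, beside 32851 windows for all 27025 genes that have any. A gene counted if any of its windows matched, so a gene with more windows had more chances to match. The NF-kB pattern was in 6 of the 32 (18.8%; 8.23% of all 27025 genes with a window), in Il2ra, Ccl9, Ccr1, Il16, Il1r1 and Tnfrsf25. The GAS pattern was in 6 (18.8% against 8.13%), the AP-1 pattern in 5 (15.6% against 7.82%) and the GATA pattern in 4 (12.5% against 11.4%; Ccl27a, Ccr8, Il1f9 and Il1rl1). A match is a description of the letters and not of a bound site. The part of NF-kB and the other factors in the genotype differences was not tested. The windows of all 6 genes with the NF-kB pattern are shown, since NF-kB was named above for the TNF and interleukin 1 receptors. Capitals mark the bases that match the pattern or its reverse complement, and each window is written 5′ to 3′ on the gene's strand.
Il2ra (chr2:11642561-11642630, plus strand): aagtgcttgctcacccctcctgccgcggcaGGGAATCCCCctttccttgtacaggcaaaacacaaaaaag
Ccl9 (chr11:83578637-83578701, minus strand): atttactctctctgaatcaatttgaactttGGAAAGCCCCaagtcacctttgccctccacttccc
Ccr1 (chr9:123968727-123968796, minus strand): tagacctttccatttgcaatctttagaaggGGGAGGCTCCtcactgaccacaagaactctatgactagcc
Il16 (chr7:83655505-83655574, minus strand): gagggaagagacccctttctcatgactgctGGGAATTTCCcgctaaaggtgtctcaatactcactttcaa
Il1r1 (chr1:40266336-40266393, plus strand): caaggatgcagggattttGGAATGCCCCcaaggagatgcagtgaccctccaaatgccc
Tnfrsf25 (chr4:152116285-152116342, plus strand): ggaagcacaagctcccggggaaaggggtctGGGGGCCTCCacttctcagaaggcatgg
The match of Il2ra begins 201 bases before the start and also reads as the reverse complement shifted by 1 base, and the same holds for Il16. In Ccl9 the AP-1 match TGAATCA lies in the same window, 53 bases before the start, and the NF-kB match lies 35 bases before it. Il16 and several others have more than 1 RefSeq start, and the start shown is the one whose window holds the match.

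Per kilobase of exon, the WT air levels of these genes ran from 2590 for Ccl9 to 0.269 for Ccl28. Behind Ccl9 came Ccl6 (1431), Tnfrsf26 (1103), Il17ra (926), Tnfrsf1a (872), Tnfrsf12a (802), Tnfrsf1b (646) and Il11ra1 (646). Lowest above Ccl28 were Cxcl11 (6.12), Il23a (5.31), Il2ra (4.49) and Tnfrsf25 (3.20). In this order Tnfrsf1b and Il11ra1 differed by less than the spread of their replicates.

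Among the TNF receptor superfamily, Tnfrsf14 rose, Tnfrsf1a, Tnfrsf1b, Tnfrsf12a and Tnfrsf26 fell in both oxygen conditions, and Tnfrsf22 and Tnfrsf25 passed in physioxia alone (1 higher and 4 lower of 7 in air, 2 higher and 5 lower in physioxia). Tnfrsf14, which encodes the receptor HVEM for the ligand LIGHT and the inhibitory receptor BTLA, lies on chromosome 4 (GRCm38, 154921933 to 154928563, minus strand). Its counts were 149, 196, 137 and 158 in WT air against 1014, 993, 1983 and 1522 in Tet2-deficient air. In physioxia Tnfrsf14 stood at 123, 102, 138 and 137 in WT and 992, 1715, 1199 and 1021 in Tet2-deficient cells. Every Tet2-deficient library lay far above every WT library, in both conditions. Tnfrsf14 was highest in Tet2-deficient air replicate 3 and Tet2-deficient physioxia replicate 2, which also held the highest erythroid marker sums (275892 and 257790). The part of erythroid cells in this rise was not tested. The log2 difference (± SE, as below) was 3.05 ± 0.22 in air (adjusted p = 4.78e-08) and 3.26 ± 0.22 in physioxia (adjusted p = 2.4e-08).

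Tnfrsf1a, the main receptor of TNF, lies on chromosome 6 (GRCm38, 125349362 to 125362484, plus strand), and stood at 2416, 2243, 2154 and 2229 in WT air against 1331, 1219, 1361 and 1596 in Tet2-deficient air. The physioxia counts of Tnfrsf1a were 2137, 1406, 2484 and 2403 in WT and 1339.6, 1219.6, 1485 and 1365 in Tet2-deficient cells. The groups were apart in air, and in physioxia WT replicate 2 overlapped the Tet2-deficient range; the difference was −0.72 ± 0.15 in air (adjusted p = 0.000944) and −0.61 ± 0.15 in physioxia (adjusted p = 0.00285). Tnfrsf1b, the other TNF receptor, stood at 2365, 2247, 2556 and 2702 in WT air against 1638, 1355, 1219.9 and 1549.9 in Tet2-deficient air. At 3% oxygen Tnfrsf1b counted 2253, 1158, 2633 and 2714 in WT and 1611, 1127, 1388 and 1663 in Tet2-deficient cells. WT physioxia replicate 2 again lay low, within the Tet2-deficient range. The difference was −0.78 ± 0.22 in air (adjusted p = 0.00568) and −0.54 ± 0.22 in physioxia (adjusted p = 0.0358), and the physioxia call was lost without any 1 of WT physioxia replicates 1, 3 and 4 or Tet2-deficient physioxia replicates 2 and 3 (adjusted p = 0.0789, 0.114, 0.117, 0.114 and 0.0689).

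Tnfrsf12a, the receptor Fn14 for the ligand TWEAK, stood at 1576, 1429, 1570.3 and 1622 in WT air against 1255, 1171, 1192 and 996 in Tet2-deficient air. Tnfrsf12a in physioxia stood at 1366, 1372, 1391 and 1604 in WT and 1101, 730.2, 594 and 1238 in Tet2-deficient cells. The groups did not overlap, and in physioxia Tet2-deficient replicates 2 and 3 were lowest. Its difference was −0.43 ± 0.18 in air (adjusted p = 0.0388) and −0.70 ± 0.18 in physioxia (adjusted p = 0.00349); the air call was lost without any 1 of WT air replicates 1, 3 and 4 or Tet2-deficient air replicates 2, 3 and 4 (adjusted p = 0.0706, 0.0673, 0.0768, 0.0573, 0.0579 and 0.101). Tnfrsf26, the most abundant receptor of this family per length, stood at 3215, 2758, 3981 and 4247 in WT air against 2191, 2493, 1702 and 1849 in Tet2-deficient air. For Tnfrsf26 in physioxia, WT libraries held 2629, 3079, 2977 and 3778 and Tet2-deficient libraries 1948, 2167, 2237 and 2431. All WT libraries lay above all Tet2-deficient libraries, and the difference was −0.78 ± 0.15 in air (adjusted p = 0.000658) and −0.50 ± 0.15 in physioxia (adjusted p = 0.0106). Its neighbour Tnfrsf22, a decoy receptor for TRAIL that lies 6.08 kb away on the same strand, went the other way: its mean was 85.2 ± 1.32 (mean ± SD, n = 4 libraries, as for all such pairs) in WT against 121 ± 22.2 in Tet2-deficient cells in air, and 66.1 ± 18.4 against 117 ± 27.3 in physioxia. The difference was 0.49 ± 0.24 in air (adjusted p = 0.0685) and 0.83 ± 0.24 in physioxia (adjusted p = 0.00681), and the air value passed without WT physioxia replicate 2 (adjusted p = 0.031) or Tet2-deficient air replicate 2 (adjusted p = 0.0397). Tnfrsf25, the death receptor DR3, was near the floor of detection, at 4.72, 12.9, 11.7 and 7.68 in WT physioxia and 2.36, 2.16, 0 and 0 in Tet2-deficient physioxia. Its difference was −0.11 ± 0.66 in air (adjusted p = 0.87) and −2.42 ± 0.66 in physioxia (adjusted p = 0.00508).

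**Figure D4:**
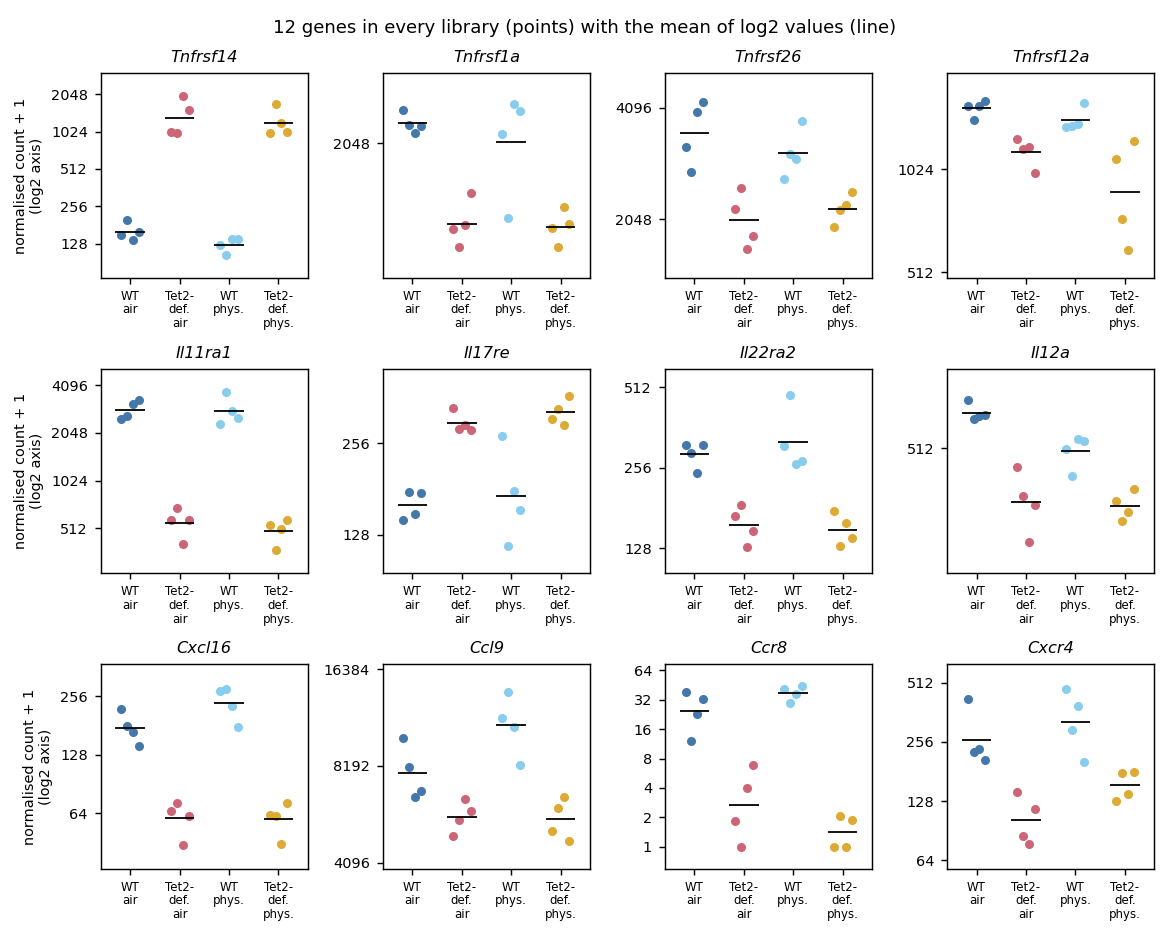
Normalised count plus 1 of 12 genes on log2 axes, with 1 point per library (4 in each of the 4 groups) and a line at the mean of the log2 values. Tnfrsf14 and Il17re lie higher in Tet2-deficient libraries, and the other 10 lower. In Tnfrsf1a 1 WT physioxia library lies within the Tet2-deficient range, and in Il17re 1 lies just below it.

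The TNF superfamily ligands were divided: in air 1 of 4 was higher and 1 lower, and in physioxia 2 were lower. Tnfsf8, the CD30 ligand, stood at 37.5, 34.2, 29.7 and 29.7 in WT air against 14.7, 26.05, 14.01 and 19.5 in Tet2-deficient air. Kept in physioxia, WT libraries held Tnfsf8 at 43.7, 74.7, 36 and 36.7 and Tet2-deficient libraries at 9.45, 28.1, 25.8 and 12.9. The groups did not overlap, by a narrow margin. The difference was −0.82 ± 0.35 in air (adjusted p = 0.0426) and −1.34 ± 0.35 in physioxia (adjusted p = 0.00417), and the air call was lost without any 1 of the WT air replicates 1 to 4 (adjusted p = 0.0902, 0.0759, 0.0568 and 0.0588) or of Tet2-deficient air replicates 1, 3 and 4 (adjusted p = 0.0936, 0.104 and 0.062). Tnfsf4, the OX40 ligand, stood at 29.8, 42.3, 29.7 and 40.2 in WT air against 15.5, 37.3, 23.02 and 23.7 in Tet2-deficient air. In physioxia Tnfsf4 stood at 68.4, 48.9, 50.6 and 35 in WT and 27.2, 8.64, 32.6 and 28.4 in Tet2-deficient cells. It overlapped in air and not in physioxia, with a difference of −0.54 ± 0.38 in air (adjusted p = 0.184) and −1.15 ± 0.38 in physioxia (adjusted p = 0.0141).

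Tnfsf10, the death ligand TRAIL, stood at 161, 125, 89.2 and 121 in WT air against 207, 196, 154 and 247 in Tet2-deficient air. The physioxia counts of Tnfsf10 were 120.3, 195, 166 and 146 in WT and 142, 169, 181 and 148 in Tet2-deficient cells. In air the highest WT library overlapped the lowest Tet2-deficient one, and in physioxia the ranges were shared. The difference was 0.70 ± 0.21 in air (adjusted p = 0.00769) and 0.04 ± 0.21 in physioxia (adjusted p = 0.863), and the air call was lost with quantile normalisation. The interaction, −0.66 ± 0.29, did not pass (adjusted p = 0.552). Tnfsf9, the 4-1BB ligand, stood at 276, 259, 200.4 and 146 in WT air against 147, 159, 151 and 89.7 in Tet2-deficient air. At 3% oxygen Tnfsf9 counted 179, 151, 116 and 94.7 in WT and 95.7, 156, 73.4 and 190.0 in Tet2-deficient cells. Its ranges overlapped in both conditions, at the edge in air, and the difference was −0.68 ± 0.31 in air (adjusted p = 0.0543) and −0.13 ± 0.31 in physioxia (adjusted p = 0.721). The air value passed without WT air replicate 4 (adjusted p = 0.0301) and without Tet2-deficient physioxia replicate 3 (0.0404) or 4 (0.0434), which enter only through the shared spread.

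Of the chemokine ligands, 6 of 7 fell in Tet2-deficient cells in both conditions and Ccl28 rose, and the groups did not overlap in any of the 7 in either condition. Over all genes tested, 37.4% were lower in air and 33.6% in physioxia, and 70.6% and 57.6% did not overlap. Cxcl16, a membrane-bound chemokine that binds Cxcr6 and also takes up oxidised lipid, lies on chromosome 11 (GRCm38, 70453983 to 70459984, minus strand). It stood at 218, 179, 167 and 142 in WT air against 64.7, 71.2, 43.03 and 60.9 in Tet2-deficient air. Cxcl16 in physioxia stood at 271, 279, 227 and 176 in WT and 61.4, 60.5, 43.5 and 71.4 in Tet2-deficient cells. Every WT library lay well above every Tet2-deficient one, and the difference was −1.55 ± 0.22 in air (adjusted p = 4.21e-05) and −1.99 ± 0.22 in physioxia (adjusted p = 3.83e-06). Ccl9, a myeloid chemokine that binds Ccr1 and whose promoter window is shown above, stood at 10037, 8108, 6575 and 6829.8 in WT air against 4945, 5562, 6466 and 5917 in Tet2-deficient air. For Ccl9 in physioxia, WT libraries held 11571, 13925, 10860.5 and 8274 and Tet2-deficient libraries 5144, 6056, 6548 and 4767. The 3 highest libraries were WT physioxia replicates 1, 2 and 3, and in air the WT and Tet2-deficient ranges lay close without overlap. The difference was −0.45 ± 0.16 in air (adjusted p = 0.0229) and −0.97 ± 0.16 in physioxia (adjusted p = 0.000193), and the air call was lost without WT air replicate 1 (adjusted p = 0.0835) or Tet2-deficient air replicate 1 (adjusted p = 0.0624).

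Ccl6, the gene 9.25 kb from Ccl9 on chromosome 11 and also a ligand of Ccr1, stood at 4433, 2784, 1709 and 1349.9 in WT air against 949, 926, 943 and 1296 in Tet2-deficient air. Kept in physioxia, WT libraries held Ccl6 at 6075, 5064, 1896 and 1524 and Tet2-deficient libraries at 1087, 1187, 1291 and 820.3. WT replicates 1 and 2 were highest in both conditions, as were the monocyte and neutrophil marker sums, and WT air replicate 4 lay just above the highest Tet2-deficient library. The difference was −1.18 ± 0.41 in air (adjusted p = 0.0173) and −1.51 ± 0.41 in physioxia (adjusted p = 0.00499); without WT air replicate 1 it was −0.87 in air (adjusted p = 0.0635). Ccl27a, known from skin as a ligand of Ccr10, stood at 163, 121, 122 and 112 in WT air against 90.8, 36.5, 85.1 and 88.03 in Tet2-deficient air. In physioxia Ccl27a stood at 216, 162, 133 and 120.4 in WT and 92.1, 72.4, 65.2 and 70.5 in Tet2-deficient cells. WT libraries lay above all Tet2-deficient ones, with a difference of −0.85 ± 0.28 in air (adjusted p = 0.013) and −1.04 ± 0.28 in physioxia (adjusted p = 0.00449). With WT replicates 1 and 2 left out of both conditions neither passed (adjusted p = 0.0739 and 0.0695). It overlaps the end of Il11ra1 by 8 bases on the opposite strand, and both genes have near-identical copies, so the split of their reads is uncertain. Cxcl11, known as an interferon-induced ligand of Cxcr3, is annotated in GRCm38 as a polymorphic pseudogene, and whether its RNA gives a working ligand was not tested. It stood at 30.8, 17.1, 22.02 and 22.96 in WT air against 4.91, 13.02, 3.002 and 0 in Tet2-deficient air. The physioxia counts of Cxcl11 were 27.1, 37.8, 32.1 and 31.6 in WT and 12.99, 6.48, 0 and 3.44 in Tet2-deficient cells. No Tet2-deficient library reached the lowest WT library. The difference was −2.48 ± 0.75 in air (adjusted p = 0.00913) and −2.83 ± 0.75 in physioxia (adjusted p = 0.00442).

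Ccl28, a mucosal chemokine that binds Ccr10, was almost absent from WT libraries: its counts were 0, 3.02, 2.202 and 0 in WT air against 23.7, 32.1, 9.01 and 13.5 in Tet2-deficient air. At 3% oxygen Ccl28 counted 0, 0, 0 and 2.56 in WT and 25.99, 3.24, 20.4 and 18.9 in Tet2-deficient cells. Each Tet2-deficient library lay above the highest WT library of its oxygen condition in normalised counts. In physioxia, Tet2-deficient replicate 2 and WT replicate 4 held 3 reads each, so only the size factors set these libraries apart. The difference was 3.29 ± 0.69 in air (adjusted p = 0.00103) and 3.44 ± 0.69 in physioxia (adjusted p = 0.000762). In physioxia 62 reads over the 4 Tet2-deficient libraries stood against 3 over the 4 WT libraries, a ratio of 23.3 after scaling by size factors with a 95% counting interval of 7.60 to 116. Ccl24, the eosinophil chemokine eotaxin-2, was low as well, with means of 13 ± 1.59 in WT against 5.29 ± 2.09 in Tet2-deficient cells in air and 12.2 ± 4.27 against 5.21 ± 1.75 in physioxia. Its difference was −1.22 ± 0.37 in air (adjusted p = 0.00912) and −1.08 ± 0.37 in physioxia (adjusted p = 0.0169), and the physioxia call was lost without WT physioxia replicate 4 (adjusted p = 0.0562).

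All 5 chemokine receptors were lower in Tet2-deficient cells in both oxygen conditions, and none overlapped between genotypes. Over all genes tested, 35.5% in air and 28% in physioxia were lower without overlap. Ccr8, a receptor of type 2 and regulatory T cells, had the lowest log2 difference of the 46 genes. It stood at 37.5, 11.1, 22.02 and 31.6 in WT air against 0.818, 0, 3.002 and 5.93 in Tet2-deficient air. Ccr8 in physioxia stood at 40.1, 28.6, 36 and 42.7 in WT and 0, 1.08, 0 and 0.8599 in Tet2-deficient cells. In Tet2-deficient physioxia the 4 libraries held 2 reads in all against 152 in WT, a ratio of 67.5 with a counting interval of 18.4 to 563. The fitted difference was −3.19 ± 0.55 in air (adjusted p = 0.000238) and −4.74 ± 0.55 in physioxia (adjusted p = 6.66e-06). Cxcr4, the receptor of Cxcl12, lies on chromosome 1 (GRCm38, 128588199 to 128592293, minus strand), and stood at 420.1, 227, 236 and 207 in WT air against 142, 84.2, 76.1 and 115 in Tet2-deficient air. For Cxcr4 in physioxia, WT libraries held 474, 293, 386 and 201 and Tet2-deficient libraries 126, 176, 139 and 178. The groups were apart, with WT air replicate 1 well above its group, and the difference was −1.36 ± 0.28 in air (adjusted p = 0.000959) and −1.07 ± 0.28 in physioxia (adjusted p = 0.00448).

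Ccr1, whose promoter window is shown above, is the receptor of Ccl9 and Ccl6 and stood at 198, 132, 109 and 65.1 in WT air against 43.4, 52.97, 17.01 and 51.6 in Tet2-deficient air. Kept in physioxia, WT libraries held Ccr1 at 290.2, 212, 113 and 85.4 and Tet2-deficient libraries at 35.4, 46.5, 59.8 and 24.1. Ccr7, which guides T cells and dendritic cells to lymph nodes, stood at 415, 225, 135 and 157 in WT air against 90.03, 79.9, 70.1 and 23.7 in Tet2-deficient air. The physioxia counts of Ccr7 were 458, 305, 179 and 155 in WT and 72.1, 45.4, 38.1 and 93.7 in Tet2-deficient cells. In both receptors WT replicate 1 was highest in both conditions, as it was in the neutrophil marker sum, and WT replicates 3 and 4 still lay above every Tet2-deficient library. The difference was −1.60 ± 0.45 in air (adjusted p = 0.00629) and −1.96 ± 0.45 in physioxia (adjusted p = 0.00185) for Ccr1 and −1.82 ± 0.46 in air (adjusted p = 0.00348) and −2.08 ± 0.46 in physioxia (adjusted p = 0.00155) for Ccr7. With WT replicates 1 and 2 left out of both conditions, Ccr1 no longer passed in air (adjusted p = 0.0526).

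The interleukin receptor chains were mostly lower in Tet2-deficient cells, 11 of 17 in air and 13 in physioxia, with 4 and 3 higher. Il11ra1, the specific chain of the interleukin 11 receptor, lies on chromosome 4 (GRCm38, 41699989 to 41769474, plus strand), and stood at 2496, 2622, 3117 and 3318 in WT air against 577, 690.3, 405 and 579 in Tet2-deficient air. At 3% oxygen Il11ra1 counted 2331, 3678, 2792 and 2537 in WT and 535, 375, 507 and 576 in Tet2-deficient cells. The genotypes were far apart in both conditions, and in air WT replicates 1 and 2 were the lowest of the WT libraries. Its difference was −2.37 ± 0.18 in air (adjusted p = 7.16e-08) and −2.50 ± 0.18 in physioxia (adjusted p = 4.6e-08). Other genes overlap it on the opposite strand (Dctn3 and Rpp25l among those in the table), and whether the counting used strand is not given in the sources used here; the same limit holds for Il16, Il17rb, Cxcl11, Ccl6, Il18 and Tnfrsf22, which also overlap genes on the other strand, most of them over several kilobases, and for shorter overlaps in Cxcl16, Il4ra, Tnfrsf26, Tnfsf9, Il10ra and Il27ra.

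Il2rb, the signalling chain shared by the interleukin 2 and interleukin 15 receptors, stood at 681, 425, 156 and 118 in WT air against 58.9, 47.8, 66.1 and 55.02 in Tet2-deficient air. Il2rb in physioxia stood at 921, 246, 204 and 167 in WT and 59.1, 58.3, 42.1 and 62.8 in Tet2-deficient cells. The Tet2-deficient libraries were close together, and WT replicates 3 and 4 lay above them but far below replicate 1. The difference was −2.24 ± 0.52 in air (adjusted p = 0.00207) and −2.41 ± 0.52 in physioxia (adjusted p = 0.00127). In WT physioxia replicate 2 Il2rb lay near replicates 3 and 4, while the T and NK sum without Nkg7 lay near that of replicate 1. Il2ra, which completes the high-affinity interleukin 2 receptor and whose promoter window is shown above, had WT and Tet2-deficient means of 25.6 ± 8.55 and 5.62 ± 2.77 in air and of 25.3 ± 16.5 and 5.58 ± 1.96 in physioxia. The groups did not overlap, and the difference was −2.04 ± 0.44 in air (adjusted p = 0.00129) and −1.88 ± 0.44 in physioxia (adjusted p = 0.00217).

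Il17rb, the receptor of interleukin 25, stood at 239, 245, 315 and 295 in WT air against 134, 156, 96.1 and 120.2 in Tet2-deficient air. For Il17rb in physioxia, WT libraries held 256, 205, 197 and 273 and Tet2-deficient libraries 158, 81.02, 93.8 and 132. Il22ra2, a soluble protein that binds and blocks interleukin 22, stood at 310.5, 289.8, 243 and 312 in WT air against 168, 184, 128 and 147 in Tet2-deficient air. Kept in physioxia, WT libraries held Il22ra2 at 309, 479, 263 and 269.7 and Tet2-deficient libraries at 176, 129.6, 158 and 138. In both genes every WT library lay above every Tet2-deficient library, and the difference was −1.12 ± 0.22 in air (adjusted p = 0.000596) and −1.03 ± 0.22 in physioxia (adjusted p = 0.00109) for Il17rb and −0.88 ± 0.19 in air (adjusted p = 0.00135) and −1.09 ± 0.19 in physioxia (adjusted p = 0.000269) for Il22ra2. Il4ra, the shared chain of the interleukin 4 and interleukin 13 receptors, stood at 1780.3, 1822, 2351 and 1806 in WT air against 1246, 1203, 1195 and 1392 in Tet2-deficient air. In physioxia Il4ra stood at 1704, 1087, 1723 and 1794 in WT and 1239, 1015, 1011 and 1337 in Tet2-deficient cells. WT air replicate 3 lay above and WT physioxia replicate 2 below the rest of their groups, the latter inside the Tet2-deficient range. Its difference was −0.62 ± 0.16 in air (adjusted p = 0.00339) and −0.44 ± 0.16 in physioxia (adjusted p = 0.0209). The physioxia call was lost without any 1 of WT physioxia replicates 1, 3 and 4 (adjusted p = 0.0565, 0.0594 and 0.0629) or Tet2-deficient physioxia replicates 2 and 3 (adjusted p = 0.0609 and 0.0617).

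Il17re, the receptor chain for interleukin 17C, and Il17rc, a chain for interleukin 17A and 17F, lie 0.67 kb apart on chromosome 6, and both were higher in Tet2-deficient cells in air. Il17re stood at 142, 176, 149 and 174 in WT air against 333, 285, 292 and 281 in Tet2-deficient air. The physioxia counts of Il17re were 269, 116, 177 and 154 in WT and 306, 331, 294 and 365 in Tet2-deficient cells. No library of the genotypes overlapped, WT physioxia replicate 1 coming nearest, and the difference was 0.89 ± 0.20 in air (adjusted p = 0.0016) and 0.91 ± 0.20 in physioxia (adjusted p = 0.00134). Il17rc was lower per length than Il17re in WT air (6.39 against 27.3 per kilobase), with means of 17.1 ± 5.64 against 35.9 ± 2.09 in air and 21.2 ± 4.101 against 28.03 ± 9.29 in physioxia and a difference of 1.10 ± 0.31 in air (adjusted p = 0.00637) and 0.35 ± 0.31 in physioxia (adjusted p = 0.319). Their shared partner chain Il17ra was lower, at WT and Tet2-deficient means of 8023 ± 2092 and 4799 ± 524 in air and of 7852 ± 2175 and 4674 ± 782 in physioxia, a difference of −0.71 ± 0.21 in air (adjusted p = 0.00777) and −0.71 ± 0.21 in physioxia (adjusted p = 0.00766).

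Il27ra, the receptor of interleukin 27, stood at 548, 563, 476 and 682 in WT air against 1026, 1014, 719.6 and 598 in Tet2-deficient air. At 3% oxygen Il27ra counted 425, 315, 485 and 528 in WT and 761, 508, 535 and 718 in Tet2-deficient cells. The ranges overlapped in both conditions. The difference was 0.54 ± 0.21 in air (adjusted p = 0.0275) and 0.53 ± 0.21 in physioxia (adjusted p = 0.0326), and either call was lost without any 1 of 4 libraries, which in air were WT replicates 1 and 3 and Tet2-deficient replicates 1 and 2 (adjusted p = 0.0536, 0.0739, 0.0813 and 0.0797) and in physioxia WT replicates 1 and 2 and Tet2-deficient replicates 1 and 4 (adjusted p = 0.0594, 0.104, 0.0988 and 0.0846).

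A run of 4 receptor genes on chromosome 1 did not move as a block. From left to right they are Il1r1 (the interleukin 1 receptor), Il1rl1 (ST2, the interleukin 33 receptor), and Il18r1 and Il18rap (the chains of the interleukin 18 receptor), and Il1rl1 ends 0.14 kb before Il18r1 begins. Il1rl1 was higher in Tet2-deficient cells, with counts of 99.97, 115, 117 and 126 in WT air against 137, 147, 472 and 239 in Tet2-deficient air. Il1rl1 in physioxia stood at 166, 76.5, 155 and 154 in WT and 224, 429.9, 243 and 155 in Tet2-deficient cells. Tet2-deficient air replicate 3 and Tet2-deficient physioxia replicate 2 were highest, and the same libraries held the highest erythroid marker sums (275892 and 257790). The difference was 0.93 ± 0.37 in air (adjusted p = 0.0318) and 0.89 ± 0.37 in physioxia (adjusted p = 0.0422). The air call was lost without any 1 of WT air replicates 1, 2 and 3 (adjusted p = 0.0688, 0.0539 and 0.0518) or Tet2-deficient air replicates 3 and 4 (0.126 and 0.0638). The physioxia call was lost without any 1 of WT air replicate 2 (adjusted p = 0.0505), WT physioxia replicates 2 and 3 (0.136 and 0.0509) or Tet2-deficient physioxia replicates 1, 2 and 3 (0.0583, 0.152 and 0.0704).

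The other 3 genes of the run were lower where they passed. Il18rap stood at 363, 338, 237 and 317 in WT air against 304, 268, 274 and 332 in Tet2-deficient air. For Il18rap in physioxia, WT libraries held 572, 374, 311 and 388 and Tet2-deficient libraries 269, 305, 262 and 188. The genotypes overlapped in air and were apart in physioxia. The difference was −0.08 ± 0.20 in air (adjusted p = 0.707) and −0.67 ± 0.20 in physioxia (adjusted p = 0.0081), with an interaction of −0.59 ± 0.28 (adjusted p = 0.559). Il18r1 had means of 48.5 ± 10.5 (WT) and 32.6 ± 13.2 (Tet2-deficient) in air and 66.2 ± 19.7 and 21.1 ± 6.4 in physioxia, and a difference of −0.65 ± 0.36 in air (adjusted p = 0.102) and −1.60 ± 0.36 in physioxia (adjusted p = 0.00164). Il1r1 had means of 293 ± 76.3, 178 ± 30.96, 257 ± 92.5 and 161 ± 25.8 in the same order, with a difference of −0.70 ± 0.25 in air (adjusted p = 0.0216) and −0.61 ± 0.25 in physioxia (adjusted p = 0.0427). Its air call was lost without WT air replicate 4 (adjusted p = 0.0721) or Tet2-deficient air replicate 3 (0.0518), and its physioxia call without any 1 of WT physioxia replicates 1, 3 and 4 (0.105, 0.0609 and 0.156) or Tet2-deficient physioxia replicates 1, 2 and 4 (0.0748, 0.0543 and 0.115).

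The other 3 receptor chains were lower in both conditions. Il10ra, the interleukin 10 receptor, had means of 685 ± 152 against 357 ± 105 in air and 616 ± 219.5 against 325 ± 67.8 in physioxia, a difference of −0.97 ± 0.27 in air (adjusted p = 0.00558) and −0.87 ± 0.27 in physioxia (adjusted p = 0.00944). Il13ra1, which pairs with Il4ra, stood in WT at 179, 161, 82.6 and 56.4 in air and 276, 196, 95.4 and 69.1 in physioxia, again highest in replicates 1 and 2. Tet2-deficient cells held 31.1, 49.5, 42.03 and 37.2 in air and 38.98, 35.6, 81.5 and 32.7 in physioxia. Its difference was −1.43 ± 0.44 in air (adjusted p = 0.0105) and −1.62 ± 0.44 in physioxia (adjusted p = 0.00525), and with WT replicates 1 and 2 left out of both conditions the adjusted p was 0.0775 in air and 0.0601 in physioxia. Il31ra, the interleukin 31 receptor, had means of 224 ± 37.9 against 139 ± 11.7 in air and 215 ± 16.5 against 156 ± 35.5 in physioxia. Its difference was −0.67 ± 0.18 in air (adjusted p = 0.00401) and −0.48 ± 0.18 in physioxia (adjusted p = 0.0227), and the physioxia call was lost without WT physioxia replicate 3 (adjusted p = 0.0582) or Tet2-deficient physioxia replicate 2 (0.0638) or 4 (0.0748).

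Among the interleukins themselves, 3 of the 6 tested were lower in air and 4 in physioxia, and Il18 was higher in air. Il16, made as a precursor whose released end attracts CD4-bearing cells, lies on chromosome 7 (GRCm38, 83642825 to 83745726, minus strand), and stood at 2645, 2312, 2710.0 and 2634 in WT air against 1616, 1680.2, 1423 and 1674 in Tet2-deficient air. Kept in physioxia, WT libraries held Il16 at 2248, 1708, 2535 and 2715 and Tet2-deficient libraries at 1725, 1383, 1553 and 1738. The groups were apart in air, and in physioxia WT replicate 2 fell inside the Tet2-deficient range. The difference was −0.69 ± 0.13 in air (adjusted p = 0.000501) and −0.51 ± 0.13 in physioxia (adjusted p = 0.00385). Il12a, the p35 chain that interleukin 12 and interleukin 35 share, stood at 645, 589, 596 and 599.8 in WT air against 465, 406, 323 and 388 in Tet2-deficient air. In physioxia Il12a stood at 509.7, 446, 533 and 528 in WT and 396, 358, 375 and 418 in Tet2-deficient cells. The replicates were close together and the genotypes did not overlap, with a difference of −0.63 ± 0.12 in air (adjusted p = 0.000509) and −0.38 ± 0.12 in physioxia (adjusted p = 0.0115).

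Il1rn, the secreted antagonist of the interleukin 1 receptor, stood at 88.4, 33.2, 25.3 and 15.3 in WT air against 13.1, 11.3, 6.005 and 9.31 in Tet2-deficient air. The physioxia counts of Il1rn were 109.7, 60.9, 21.4 and 25.6 in WT and 9.45, 11.9, 23.1 and 22.4 in Tet2-deficient cells. WT replicate 1 was highest in both conditions, and in physioxia WT replicate 3 fell within the Tet2-deficient range. The difference was −1.68 ± 0.55 in air (adjusted p = 0.0137) and −1.44 ± 0.55 in physioxia (adjusted p = 0.029). Without WT air replicate 1 the adjusted p was 0.0519 in air, and in physioxia it was 0.112 and 0.0691 without WT replicate 1 or 2 and 0.0822 and 0.0694 without Tet2-deficient replicate 1 or 2. Il1f9, an inflammatory interleukin 36 gene 143 kb from Il1rn on chromosome 2, stood at 20.2, 28.2, 29.7 and 41.1 in WT air against 15.5, 12.2, 29.02 and 21.2 in Tet2-deficient air. At 3% oxygen Il1f9 counted 42.5, 32.3, 43.8 and 36.7 in WT and 17.7, 15.1, 31.3 and 8.599 in Tet2-deficient cells. It overlapped in air and was apart in physioxia, with a difference of −0.62 ± 0.36 in air (adjusted p = 0.12) and −1.18 ± 0.36 in physioxia (adjusted p = 0.00987).

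Il18, a cytokine stored as an inactive precursor, stood at 93.2, 97.6, 84.8 and 85.1 in WT air against 174, 198, 138 and 121 in Tet2-deficient air. Il18 in physioxia stood at 105, 189, 111 and 102 in WT and 149, 106, 156 and 138 in Tet2-deficient cells. In air every Tet2-deficient library lay above every WT library, and in physioxia the ranges overlapped, WT replicate 2 being the highest of the 8. The difference was 0.78 ± 0.22 in air (adjusted p = 0.00635) and 0.15 ± 0.22 in physioxia (adjusted p = 0.55), and the air call was lost with quantile normalisation. Il4, the cytokine of type 2 T cells and basophils, stood in air at 115, 36.2, 31.9 and 57.4 in WT and 58.1, 31.3, 46.04 and 49.1 in Tet2-deficient cells. In physioxia it was 82.6, 76.5, 55.5 and 44.4 in WT and 34.3, 41.05, 42.1 and 35.3 in Tet2-deficient cells. The physioxia groups were apart, yet its difference passed in neither condition, at −0.22 ± 0.35 in air (adjusted p = 0.541) and −0.71 ± 0.35 in physioxia (adjusted p = 0.0774). It passed in physioxia without WT air replicate 1 (adjusted p = 0.0301) or WT physioxia replicate 4 (0.048). Il23a, the p19 chain of interleukin 23, failed the filter on low values and was not tested, with counts of 18.3, 9.06, 9.91 and 10.5 in WT air and between 1.36 and 7.78 in the other 12 libraries.

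Between physioxia and air, without pairing, 0 of the 46 genes were called in WT cells, where 5.76% of all genes tested were called, and 0 in Tet2-deficient cells, where 0% of all genes were called. The interaction called 0 of 46 and 0% of all genes. At an unadjusted p under 0.05, limma gave 3 of the 46 genes in WT (19.5% of all genes tested), 2 in Tet2-deficient cells (4.58%) and 3 for the interaction (8.94%). At an adjusted p under 0.05, edgeR and DESeq2 on whole reads called 0 of the 46 in each, and their shares of all genes called were not counted. Ccl9 came nearest in WT: its counts were 11571, 13925, 10860.5 and 8274 in physioxia against 10037, 8108, 6575 and 6829.8 in air, a log2 difference of 0.50 ± 0.16 (adjusted p = 0.096) with overlapping libraries. Same-numbered WT libraries of the 2 oxygen conditions varied together. With the replicate numbers as a block within each genotype, a fit whose share of all genes called was not counted, Ccl9 passed (0.50 ± 0.13, limma adjusted p = 0.0406). It also passed without WT air replicate 1 (0.62, adjusted p = 0.0494) and without WT physioxia replicate 4 (0.63, adjusted p = 0.023). In Tet2-deficient cells its difference was −0.03 ± 0.16, adjusted p = 1.0, and the interaction was −0.52 ± 0.23 (adjusted p = 0.552).

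The other genes nearest to the threshold in WT were Tnfsf9 (−0.70 ± 0.31, adjusted p = 0.22), Il12a (−0.27 ± 0.12, adjusted p = 0.226), Il4ra (−0.32 ± 0.16, adjusted p = 0.276) and Il18 (0.44 ± 0.22, adjusted p = 0.285). Il12a and Tnfrsf22 were lower in every WT physioxia library than in every WT air library and Il18 was higher in every one, 3 of 46 genes, where 11% of all genes tested did not overlap in this comparison. In Tet2-deficient cells no gene of the 46 was apart between the oxygen conditions (3.75% of all genes tested), and the nearest were Tnfrsf25 (−1.80 ± 0.66, adjusted p = 0.963), Tnfrsf12a (−0.39 ± 0.18, adjusted p = 1.0), Cxcr4 (0.59 ± 0.28, adjusted p = 1.0) and Il27ra (−0.40 ± 0.21, adjusted p = 1.0). For Il27ra the WT value was −0.39 ± 0.21, adjusted p = 0.322. A difference that did not pass does not show that oxygen left a gene at the same level.

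**Figure D5:**
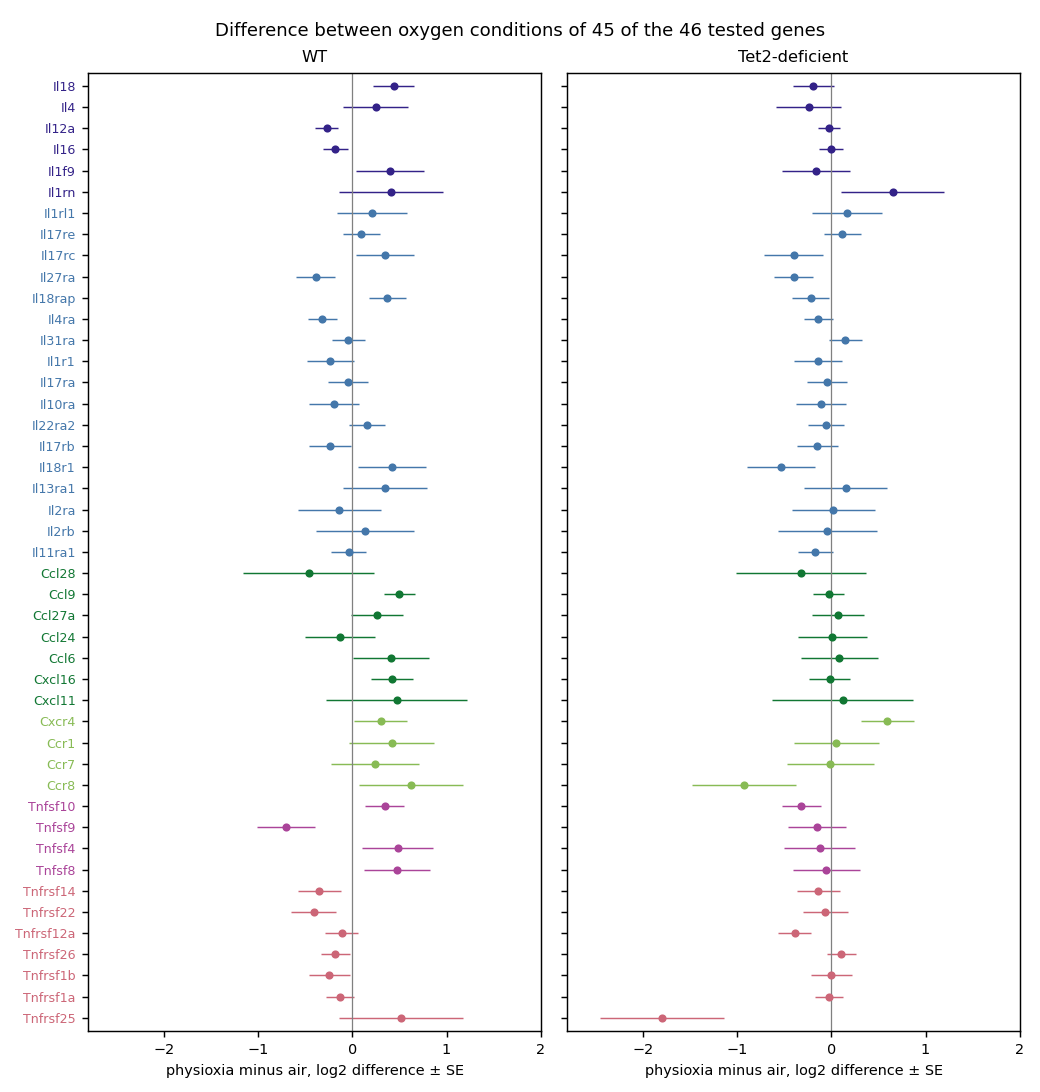
Log2 difference between physioxia and air with its SE for 45 of the 46 tested genes (rows, coloured by role as in the heat map), in WT cells (left) and Tet2-deficient cells (right). WT points lie between −0.70 (Tnfsf9) and 0.62 (Ccr8), Ccl9 in WT lies at 0.50, and the far points in Tet2-deficient cells are Tnfrsf25 at −1.80 and Ccr8 at −0.93.

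Genes of the same pathways outside the name rule were counted from lists taken whole. Of 49 further cytokine ligands and receptors, 27 were in the table; 7 were higher and 18 lower in air (median −0.61) and 7 higher and 16 lower in physioxia (median −0.63). Among ligands, Ifng (interferon gamma) differed by −2.86 in air and −3.37 in physioxia, Xcl1 by −2.89 and −2.60, Lta (lymphotoxin alpha) by −2.39 and −2.28, and Csf1 (macrophage colony-stimulating factor) by −2.0 and −1.50, all 4 lower in both. Beside them, 9 of the 10 measured T and NK markers were also lower in each condition, and their part in these values was not tested. Among receptors, Cd40 differed by −2.12 and −2.76 and Fas by −1.73 and −1.65, while the erythropoietin receptor Epor (1.90 and 1.89) and the chemokine-binding Ackr1 (2.06 and 1.97) were higher in both. Epor is also among the erythroid markers.

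Of 40 genes that carry the signal of TNF and interleukin 1 receptors, 30 were in the table, with 6 higher and 22 lower in air (median −0.41) and 3 higher and 17 lower in physioxia (median −0.34). The lower ones included Traf1 (−2.04 in air and −2.01 in physioxia), an adaptor of TNF receptors, the NF-kB subunits Nfkb2 (−1.83 and −1.51), Relb (−1.35 and −1.32) and Rel (−1.26 and −1.04), and the NF-kB inhibitors Nfkbie (−1.62 and −1.41) and Nfkbia (−0.96 and −1.12). Nfkb1 and Rela were lower by less (−0.21 and −0.43 in air), and in physioxia Rela passed (−0.37) and Nfkb1 did not (−0.10). Tab1, Tab3 and Map3k7, the TAK1 kinase complex that links receptors to NF-kB, were higher in both conditions (Map3k7 0.38 and 0.55), while their partner Tab2 was lower in air (−0.40). Of 26 JAK, STAT and SOCS genes 10 were in the table and were mixed, with 4 higher and 3 lower in air (median 0.31) and 3 higher and 2 lower in physioxia (median 0.28). Cish, an inhibitor that cytokines induce through STAT5, was lower (−0.99 and −0.97), and Stat5a (0.30 and 0.47) and the inhibitor Socs3 (0.38 and 0.63) were higher. The medians of these 3 lists stand beside 0.24 in air and 0.06 in physioxia over all genes tested, and their counts beside 42.1% higher and 37.4% lower in air and 35.9% higher and 33.6% lower in physioxia.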

How the data were processed

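The authors deposited 1 table of normalised counts for 16 bulk RNA-seq libraries, whose unit is treated as a signal: gene counts divided by 1 size factor per library. The submitters' processing notes name FastQC, cutadapt, STAR, HTSeq, DESeq2 and GRCm38, without versions or roles. How the table's 6288 genes were chosen, and whether counting used strand, is not given in the sources used here. Dividing by each library's smallest step gave whole reads for 100% of values (within 0.01). Those reads, 7.77 to 15.7 M for a library, served the count tests. Low counts limit precision, and read-based intervals cover counting error only.

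The 6110 genes that reached 10 in 4 or more libraries were tested with limma 3.58.1 in R 4.3.3, with an intensity trend, on log2 (normalised count + 1). A difference on this scale understates the change of low genes. All 16 libraries entered 1 fit with a mean per group, two-sided, with Benjamini-Hochberg adjustment over all genes tested and a threshold of 0.05. The script was tested on simulated data. The genes, the pathway and marker lists and the tests were chosen with earlier results of these data known. Every tested gene but 1 is named; that gene is counted with its role but is not reported here or plotted. Values of every library are given for up to 5 genes per role with the smallest genotype p, up to 2 with the smallest oxygen p and the 3 with the smallest interaction p, at a mean of at least 10, and for some others beside them. Gene positions are from GENCODE M21 (GRCm38), promoter windows from RefSeq (GRCm38.p6). Alternatives were other pseudocounts, filters and scaling, edgeR 4.0.16 and DESeq2 1.42.0 on whole reads, a replicate block, libraries left out, fits of 2 groups and an adjustment over all 55450 annotated genes.

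Whether replicate numbers pair libraries was checked by correlating deviations from group means. Same-numbered WT libraries of the 2 oxygen conditions correlated at 0.332, 0.178, 0.162 and 0.331, so the numbers pair the WT libraries across oxygen. In Tet2-deficient cells the values were 0.322, −0.275, 0.042 and −0.006, so the numbers showed no pairing there, and they showed none across genotypes. The highest value between Tet2-deficient libraries was 0.500, for air replicate 3 with physioxia replicate 2. The check covers the numbers only and does not show that the Tet2-deficient libraries were unmatched.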

Additional observations from a re-analysis of the deposited data

Results flagged for a closer look

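In 14 of 188 groups of 4 libraries (7.45%) 1 library lay far from the other 3 by Dixon's criterion, which chance meets in about 1 group in 20. Libraries that stood high were Tnfrsf12a in WT physioxia replicate 4 (1604 against 1366 to 1391 in the others), Ccl24 in WT air replicate 1 (15.4 against 12.1 to 12.4), Ccl28 in WT physioxia replicate 4 (2.56 against 0), Ccl6 in Tet2-deficient air replicate 4 (1296 against 926.5 to 948.5) and Cxcr4 in WT air replicate 1 (420.1 against 206.6 to 235.7). Il13ra1 stood high in Tet2-deficient physioxia replicate 3 (81.5 against 32.7 to 38.98), Il2rb in WT physioxia replicate 1 (921.4 against 167.3 to 246.2), Il4ra in WT air replicate 3 (2351 against 1780 to 1822), Il18 in WT physioxia replicate 2 (189.1 against 101.6 to 110.9) and Il23a in WT air replicate 1 (18.3 against 9.06 to 10.5). Libraries that stood low were Tnfsf9 in Tet2-deficient air replicate 4 (89.7 against 147.3 to 158.9), Ccl27a in Tet2-deficient air replicate 2 (36.5 against 85.1 to 90.8), Il1rl1 in WT physioxia replicate 2 (76.6 against 153.6 to 166.4) and Il4ra in WT physioxia replicate 2 (1087 against 1704 to 1794).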

How the results depend on the processing

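Of 3077 values recomputed under the alternatives, 2884 kept direction and side of the threshold, 158 no longer passed, 19 came to pass and 16 changed sign, none of the last called in the fit reported. In air 18 genes and in physioxia 22 were called under every alternative run, and 20 and 26 when the adjustment over all annotated genes is set aside. That adjustment left 19 calls in air and 25 in physioxia, by its construction, and leaving out WT air replicates 1 and 2 left 25 in air, where the cause was not tested. Leaving out 1 library at a time gave 31 to 39 calls in air, 35 to 42 in physioxia and 0 to 1 for oxygen in WT. With the replicate number as a block over all groups 39 genes were called in air and 39 in physioxia. A replicate block of genotype and number, which pairs same-numbered libraries within both genotypes, called 1 gene (Ccl9) for oxygen in WT. Quantile normalisation moved the median of all genes by −0.12 in air and gave 35 calls there (4 higher, 31 lower) and 38 in physioxia (4 higher, 34 lower). It ended the air calls of Il18, Tnfsf10, Il27ra and Il1rl1 (higher) and of Ccl9 and Tnfrsf12a (lower). In physioxia it ended those of Il27ra and Il1rl1 (higher) and of Il17ra and Tnfrsf1b (lower). The shares of all genes called under the alternatives were not counted.

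Uncalled values changed sign as follows, and the cause was not tested. Quantile normalisation gave Il18 −0.088 and Tnfsf10 −0.16 in physioxia. Leaving out 1 library at a time, Il4 in air ran from −0.46 to 0.15 (the latter without WT air replicate 1). Tnfrsf25 in air ran from −0.70 to 0.29, and was positive without WT air replicate 1 (0.18) or 3 (0.12) or Tet2-deficient air replicate 4 (0.29). Tnfsf10 in physioxia ran from −0.078 to 0.15, and was negative without WT physioxia replicate 1 (−0.078) or Tet2-deficient physioxia replicate 3 (−0.02). Tnfsf9 in physioxia ran from −0.35 to 0.11, and was positive without the same libraries (0.02 and 0.11). With pairs of libraries left out, Tnfrsf25 in air was 0.091 without Tet2-deficient air replicates 3 and 4. Without WT replicates 1 and 2, in air alone or in both conditions, Il18rap was 0.10 and Il4 0.070 in air, and Tnfsf9 in physioxia was 0.20 without them in both. Genes with few reads, such as Tnfrsf25, Ccl28 and Ccr8, have the widest errors.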
